A study of Rattus norvegicus with 28 samples.

Results

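The Hoxc cluster is 1 of the 4 chromosomal clusters of Hox genes in mammals, and it was followed here in NRK-49F, an established line of rat kidney fibroblasts. Its members are the rows of the expression table whose symbol is Hoxc followed only by digits, 9 of 30178 rows: Hoxc4, Hoxc5, Hoxc6, Hoxc8, Hoxc9, Hoxc10, Hoxc11, Hoxc12 and Hoxc13. Of these, 6 reached at least 1 FPKM (fragments per kilobase of gene, scaled to library size) in at least 2 libraries and were tested. Hoxc11 and Hoxc12 are listed at 0 in every library, and Hoxc13 stayed below the limit in all but 1 library.

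Among 28 samples of this line, RNA-seq of polyadenylated RNA was done on 8, in 4 groups of 2, and the other 20, chromatin immunoprecipitations with their inputs, were not analysed here. The first group, called siHoxc8 here, was given transforming growth factor β1 (abbreviated TGF-β) for 48 h and a small interfering RNA against Hoxc8. The second, MetR, had TGF-β for 48 h with methionine restriction, at 30 uM methionine where the matching control medium has 200 uM. The third, TGF-β, had the cytokine alone for 48 h, and the fourth, control, had none of these, with no time in its label. Cells of the line were kept in 10% serum and starved in 0.2% serum for 24 h, and TGF-β1 was dosed at 5 ng per uL as the labels print it. The labels name no engineered allele in any group. The labels of the TGF-β libraries name neither a non-targeting siRNA nor the medium used, so transfection with siRNA, and the make of the restriction medium, cannot be told apart from the knockdown of Hoxc8 and the lower methionine. Separate cultures are not mentioned for the 2 libraries of a group, and p-values here measure the spread between libraries, which may be technical.

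Hox genes encode homeodomain transcription factors that give cells their position along the body axis, and fibroblasts in culture keep much of the Hox pattern of the site they came from. Genes at one end of a cluster are active in front parts of the embryo and genes at the other end in rear parts, and the state of the cluster is held by the opposing Trithorax and Polycomb chromatin proteins. TGF-β turns fibroblasts into contractile myofibroblasts, which deposit matrix in kidney fibrosis, and methionine is the source of S-adenosylmethionine, the methyl donor for histone and DNA methylation. In the mouse, Hoxc6 and Hoxc8 act in the patterning of neck and forelimb levels of the spinal cord, Hoxc9 at chest levels and Hoxc10 at lumbar levels, Hoxc8 acts also in cartilage, and Hoxc13 acts in hair and nail.

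All 9 genes were found in RefSeq (assembly GRCr8), which places them on chromosome 7 in the order Hoxc13, Hoxc12, Hoxc11, Hoxc10, Hoxc9, Hoxc8, Hoxc6, Hoxc5, Hoxc4. RefSeq also gives Hoxc8 as a synonym of its Hoxc9 entry, but lists the 2 genes at separate places, and the expression table has a row for each with different values. Hoxc5 and Hoxc4 lie within the interval of the Hoxc6 gene there, so reads of these 3 genes may not be separable, and the sources used here give no strand setting for the counting. The annotation and coordinates behind the table are of the rn6 build and were not used for positions. The gene of microRNA miR-196a lies between Hoxc10 and Hoxc9, and its family is shown because it is known to target transcripts of Hox8 genes, Hoxc8 among them. The mature RefSeq sequences of its 3 members read as follows, with the seed, bases 2 to 8, in capitals.
rno-miR-196a-5p, at chr7:135988900-135988921 on the plus strand of GRCr8: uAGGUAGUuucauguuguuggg
rno-miR-196b-5p, at chr4:82661149-82661170 on the minus strand: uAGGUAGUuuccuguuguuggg
rno-miR-196c-5p, at chr10:81727561-81727582 on the plus strand: uAGGUAGUuucguguuguuggg
All 3 share the seed AGGUAGU. Counted from 1 at the 5′ end, miR-196b differs from miR-196a by A12C and miR-196c by A12G, outside the seed. RefSeq's promoter table held 1 member, Hoxc4. Its 250 bases before the start site, at chr7:136048809-136049058 on the plus strand of GRCr8, are shown for that reason. In the results Hoxc4 fell with its neighbours in MetR and siHoxc8 against TGF-β, but did not pass the test in TGF-β against control.
Hoxc4 promoter: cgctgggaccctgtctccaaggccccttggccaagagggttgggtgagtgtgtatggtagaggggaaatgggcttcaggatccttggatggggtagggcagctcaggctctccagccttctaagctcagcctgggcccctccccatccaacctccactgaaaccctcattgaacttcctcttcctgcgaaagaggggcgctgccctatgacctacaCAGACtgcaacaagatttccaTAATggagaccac
Capitals mark the short Smad core CAGAC, searched also as GTCTG, which starts at -34 from the start site, and the homeodomain core TAAT, searched also as ATTA, which starts at -13, and these matches do not overlap. Short motifs of this kind are common: CAGAC or its complement is present in 42.9% of 33469 rat promoters, and TAAT or its complement in 57.0%.

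Depth was even across the series. Whole reads could be recovered from the FPKM values, at 15118113 to 20146870 per library. Among tested genes the log2 changes were not centred on 0, with a median of -0.19 for TGF-β against control, 0.18 for MetR against TGF-β and 0.13 for siHoxc8 against TGF-β, and rescaling each library by its median ratio moved these medians by 0.19, -0.18 and -0.14. The markers of other cell types were low. All 5 epithelial markers together reached at most 0.718 FPKM in a library, with Epcam listed at 0, the endothelial ones 0.908 and the leukocyte ones 0.388, while the 4 proximal tubule markers together held 1.61 to 3.99 FPKM, with different members leading. Among these Cubn averaged 2.44 ± 0.852 FPKM in MetR cells and at most 0.624 ± 0.0966 in another group, Aqp1 3.24 ± 0.0369 in control cells and at most 0.656 ± 0.214 in another group, and Slc34a1 1.20 ± 0.00333 in siHoxc8, 0.322 ± 0.0716 in MetR, 1.06 ± 0.112 in TGF-β and 0.134 ± 0.158 in control cells (SD, n = 2 each). Fibroblast markers, 7 of 8 in the table, summed to 7.39e+03 to 7.69e+03 FPKM in siHoxc8 libraries, 5.81e+03 to 8.17e+03 in MetR, 1.14e+04 to 1.23e+04 in TGF-β and 6.73e+03 to 6.77e+03 in control libraries, mostly from Col1a1 and Vim. Single members moved otherwise: Pdgfra, a receptor of platelet-derived growth factor, averaged 48.6 ± 1.12 FPKM in siHoxc8, 8.36 ± 2.28 in MetR, 8.42 ± 0.253 in TGF-β and 27.2 ± 3.13 in control cells (SD, n = 2 each), and Pdgfrb 7.17 ± 0.373, 22.8 ± 12.5, 8.30 ± 0.195 and 22.8 ± 1.11 in the same order. The part of these differences in the Hoxc values was not tested. The fibroblast surface antigen Thy1 is listed at 0 throughout, and Dcn, the proteoglycan decorin, reached at most 1.08 FPKM. Acta2, the smooth muscle actin of myofibroblasts, averaged 23.0 ± 1.92 FPKM in siHoxc8, 38.2 ± 12.8 in MetR, 539 ± 16.5 in TGF-β and 11.9 ± 0.855 in control cells (SD, n = 2 each).

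The expressed Hoxc genes were of low to middling level. Hoxc10 was the highest member in every group but control, where Hoxc6 averaged 10.7 ± 0.141 FPKM and Hoxc10 10.2 ± 0.850 FPKM (SD, n = 2), which overlapped. By mean FPKM the order was Hoxc10, Hoxc4, Hoxc6, Hoxc9, Hoxc5, Hoxc8 in siHoxc8 cells and Hoxc10, Hoxc6, Hoxc9, Hoxc4, Hoxc5, Hoxc8 in MetR cells. It was Hoxc10, Hoxc6, Hoxc9, Hoxc4, Hoxc8, Hoxc5 in TGF-β cells and Hoxc6, Hoxc10, Hoxc4, Hoxc5, Hoxc9, Hoxc8 in control cells. Neighbours in these orders whose libraries overlapped were Hoxc4 and Hoxc6 in siHoxc8 cells, and Hoxc6 and Hoxc10, and Hoxc5 and Hoxc9, in control cells. Hoxc8 was the lowest expressed member in siHoxc8, MetR and control cells. Its mean lay above that of 1.98% of tested genes in siHoxc8 cells, 3.89% in MetR cells, 30.5% in TGF-β cells and 7.35% in control cells.

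**Figure D1:**
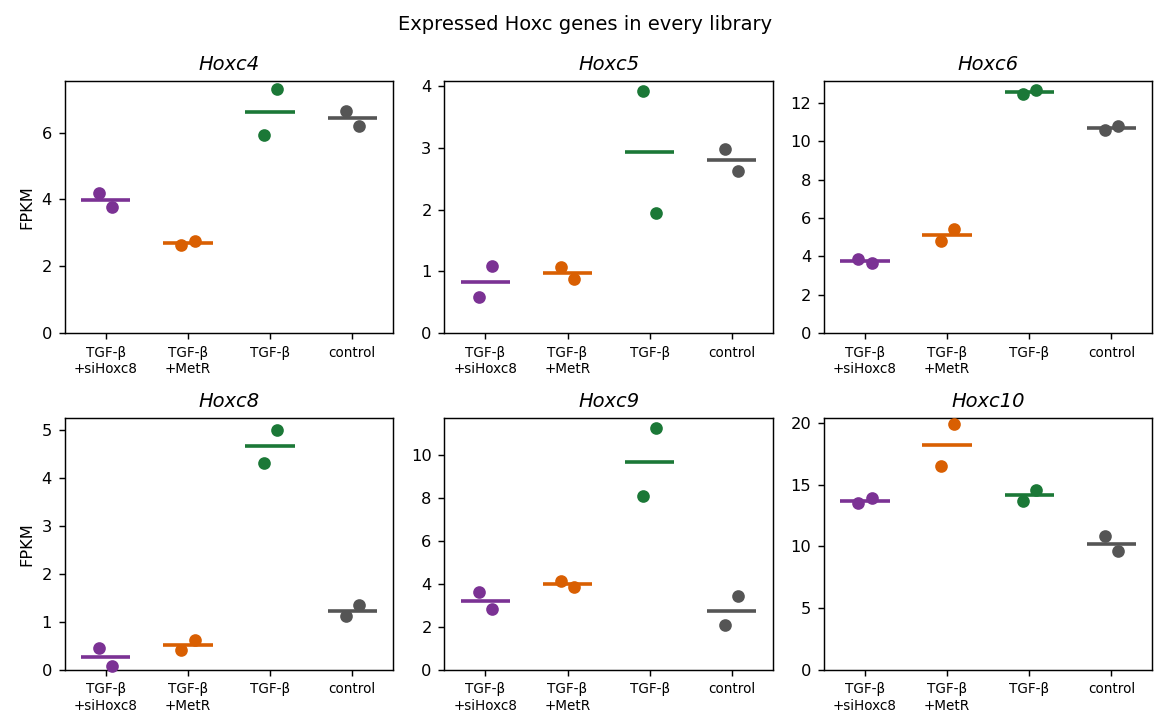
FPKM (vertical axes, linear and from 0) of the 6 expressed Hoxc genes in each of the 8 libraries, with 1 point per library and a bar at the mean of the 2 libraries of a group. Hoxc8 and Hoxc9 stand highest in TGF-β, Hoxc4, Hoxc5 and Hoxc6 are low in siHoxc8 and MetR and near each other in TGF-β and control, and Hoxc10 keeps 9.59 FPKM or more throughout.

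Hoxc8, the target of the siRNA, had 0.463 and 0.0771 FPKM in the siHoxc8 libraries, 0.417 and 0.614 in MetR, 4.32 and 5.01 in TGF-β and 1.12 and 1.34 in control. The 2 TGF-β libraries were far above the other 6, and both treatments added to TGF-β left Hoxc8 below every control library. These levels rest on few reads: 15 and 3 in siHoxc8, 18 and 23 in MetR, 150 and 176 in TGF-β and 43 and 51 in control. Relative to the pooled TGF-β libraries, the siHoxc8 libraries kept 9.92% (exact 95% counting interval 5.49 to 16.6) and 1.65% (0.339 to 4.87) of the Hoxc8 level, and the MetR libraries 8.93% (5.23 to 14.3) and 13.2% (8.22 to 20.1). Intervals of this kind cover counting error only, and in bulk RNA fewer cells with the transcript and less of it per cell cannot be told apart.

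TGF-β against control asks which Hoxc genes the cytokine changes. Hoxc8 and its neighbour Hoxc9 rose together, Hoxc10 rose less, and Hoxc4, Hoxc5 and Hoxc6 did not pass the test. Hoxc8 averaged 4.67 ± 0.490 FPKM in TGF-β cells and 1.23 ± 0.157 in control cells (SD, n = 2 each), a 3.79-fold difference and a log2 fold change of 1.34 ± 0.19 (SE) with a limma adjusted p = 0.00171. Fold changes are on the scale of log2(FPKM + 1), which understates those of low genes. Hoxc9 had 8.09 and 11.3 FPKM in TGF-β libraries and 2.07 and 3.45 in control libraries, a log2 fold change of 1.51 ± 0.22 (limma adjusted p = 0.00187). Both genes stood clear of control in each library and kept their call under all 18 alternative settings.

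Hoxc10 had 13.7 and 14.6 FPKM in TGF-β libraries, against 10.8 and 9.59 in control libraries. Its rise of 0.43 ± 0.12 passed the test (limma adjusted p = 0.0270), but not once either control library (adjusted p = 0.0767 without replicate 1 and 0.172 without replicate 2), either TGF-β library (0.0617 and 0.108) or either siHoxc8 library (0.0563 and 0.0564) was left out. Hoxc6 had 12.5 and 12.7 FPKM in TGF-β libraries and 10.6 and 10.8 in control libraries, which do not overlap, and its change of 0.21 ± 0.11 missed the threshold (limma adjusted p = 0.161). After the median ratio rescaling Hoxc6 passed it, at 0.41 (adjusted p = 0.0177).

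Hoxc4 and Hoxc5 overlapped between the groups. Hoxc4 had 5.93 and 7.31 FPKM in TGF-β libraries and 6.66 and 6.21 in control libraries (0.03 ± 0.13, 95% interval -0.28 to 0.34, limma adjusted p = 0.870). Hoxc5 had 3.92 and 1.94 FPKM in TGF-β libraries and 2.98 and 2.62 in control libraries (0.00 ± 0.26, 95% interval -0.60 to 0.61, limma adjusted p = 0.990), with the control values inside the spread of TGF-β. The sign of both is not fixed, at -0.10 for Hoxc4 without TGF-β replicate 2 and -0.37 for Hoxc5 without TGF-β replicate 1.

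Of the 6 tested members, 3 were raised and none lowered, and the same 3 were those with an unadjusted p under 0.05; limma-voom on the recovered reads gave the same counts. Across all 12315 tested genes 38.9% were called, 10.3% raised and 28.6% lowered. The members' median log2 change was 0.32, against -0.19 for all tested genes. In 4 of the 6 members every TGF-β library was above every control library, which held for 23.1% of tested genes. After the median ratio rescaling 4 members were raised and none lowered, beside 18.3% of genes raised and 17.6% lowered.

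MetR against TGF-β asks what low methionine does to the cluster in the presence of the cytokine. From Hoxc4 to Hoxc9, 5 members fell together, Hoxc8 the most, while Hoxc10, the next gene along, was slightly higher. Hoxc8 averaged 0.516 ± 0.140 FPKM in MetR cells and 4.67 ± 0.490 in TGF-β cells (SD, n = 2 each), a mean 9.05-fold lower and a log2 fold change of -1.90 ± 0.19 (limma adjusted p = 0.000272), or -3.19 with limma-voom on recovered reads and -2.97 with a pseudocount of 0.1. Hoxc9 had 4.12 and 3.87 FPKM in MetR libraries and 8.09 and 11.3 in TGF-β libraries, a change of -1.08 ± 0.22 (limma adjusted p = 0.00496). With limma's library weights the call for Hoxc9 was lost, at adjusted p = 0.0774.

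The genes at the Hoxc4 end fell by similar amounts. Hoxc6 had 4.81 and 5.41 FPKM in MetR libraries and 12.5 and 12.7 in TGF-β libraries (-1.16 ± 0.11, limma adjusted p = 0.000214). Hoxc4 had 2.64 and 2.76 FPKM in MetR libraries and 5.93 and 7.31 in TGF-β libraries (-1.04 ± 0.13, limma adjusted p = 0.000701). For both genes all MetR values lay below all TGF-β values, at close to the same share of the TGF-β mean, 40.6% for Hoxc6 and 40.8% for Hoxc4. Hoxc5 had 1.07 and 0.878 FPKM in MetR libraries and 3.92 and 1.94 in TGF-β libraries, a change of -0.95 ± 0.26 (limma adjusted p = 0.0168). That call was lost without TGF-β replicate 1 (-0.58, adjusted p = 0.0838), without MetR replicate 2 (adjusted p = 0.0628) and with library weights (adjusted p = 0.102), and the change was -1.49 with limma-voom.

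Hoxc10 had 16.5 and 19.9 FPKM in MetR libraries and 13.7 and 14.6 in TGF-β libraries, and it was just past the threshold at 0.34 ± 0.12 (limma adjusted p = 0.0480). It lost the call in 14 of 18 alternatives, among them the median ratio rescaling (0.14, adjusted p = 0.319), the quantile normalization (0.07, adjusted p = 0.607) and the omission of any single library but MetR replicate 1. Leaving out MetR replicate 2 gave 0.21 (adjusted p = 0.146), and leaving out any 1 of the control, TGF-β or siHoxc8 libraries gave an adjusted p of 0.0757 to 0.157. In sum 1 member was raised and 5 were lowered, against 53.9% of all tested genes called, 34.8% raised and 19.0% lowered, and with either rescaling no member was raised and 5 were lowered, beside 25.8% of genes raised and 26.5% lowered after the median ratio. The members' median change was -1.06 and that of all tested genes 0.18. The 2 groups did not overlap in any of the 6 members, 5 of them lower in MetR and 1 higher, where 26.7% of tested genes were lower and 46.3% higher without overlap.

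siHoxc8 against TGF-β asks what the siRNA changes beside its target. The 5 members from Hoxc4 to Hoxc9 were lowered, and Hoxc10 did not pass the test. Hoxc8 averaged 0.270 ± 0.273 FPKM in siHoxc8 cells and 4.67 ± 0.490 in TGF-β cells (SD, n = 2 each), 5.79% of the TGF-β mean, with a log2 fold change of -2.17 ± 0.19 (limma adjusted p = 0.000182). Its fall ranged from -4.56 to -1.95 over the 18 alternatives and kept its call in each, at -4.56 with limma-voom on recovered reads and -3.91 with a pseudocount of 0.1, where 3 reads stand behind siHoxc8 replicate 2.

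Among the genes not targeted, Hoxc6 fell the most on the log2(FPKM + 1) scale, while by the share of the TGF-β mean that was left Hoxc5, at 28.4%, was lowest. Hoxc6 had 3.85 and 3.65 FPKM in siHoxc8 libraries and 12.5 and 12.7 in TGF-β libraries (-1.52 ± 0.11, limma adjusted p = 8.26e-05). Hoxc9 had 3.61 and 2.83 FPKM in siHoxc8 libraries and 8.09 and 11.3 in TGF-β libraries (-1.33 ± 0.22, limma adjusted p = 0.00261). Both kept their calls under all 18 alternatives, and their means were 29.8% and 33.3% of those with TGF-β alone.

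Hoxc5 had 0.580 and 1.09 FPKM in siHoxc8 libraries and 3.92 and 1.94 in TGF-β libraries (-1.07 ± 0.26, limma adjusted p = 0.0131, and -1.75 with limma-voom). Leaving out TGF-β replicate 1 (-0.70, adjusted p = 0.0617) or siHoxc8 replicate 1 (adjusted p = 0.0860) ended that call. Hoxc4 fell the least of the 5, with 4.18 and 3.78 FPKM in siHoxc8 libraries and 5.93 and 7.31 in TGF-β libraries (-0.61 ± 0.13, limma adjusted p = 0.00876), and lost its call without siHoxc8 replicate 2 (adjusted p = 0.0673). Hoxc10 had 13.5 and 13.9 FPKM in siHoxc8 libraries and 13.7 and 14.6 in TGF-β libraries, which overlap, and its change was -0.04 ± 0.12 (95% interval -0.32 to 0.25, limma adjusted p = 0.828), or 0.01 without TGF-β replicate 2.

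No member of the 6 was raised and 5 were lowered, and at an unadjusted p under 0.05 and with limma-voom the counts were the same; of all tested genes 43.8% were called, 28.1% raised and 15.7% lowered. The median change was -1.20 for the members and 0.13 for all tested genes, and in the same 5 members all siHoxc8 libraries were below all TGF-β libraries, as in 29.2% of tested genes. The MetR and siHoxc8 comparisons share the TGF-β libraries, so a high value there lowers both. Whether the siRNA acts on neighbours of Hoxc8 through their own sequence was not tested, and the siRNA's sequence is not given in the sources used here.

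**Figure D2:**
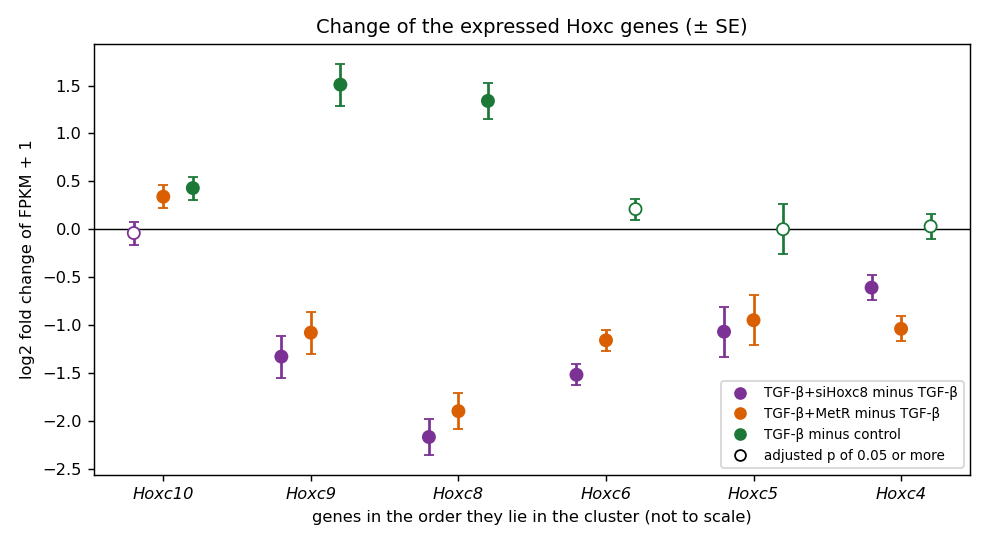
Log2 fold change of FPKM + 1 (vertical axis, limma estimate ± SE, 2 libraries per group) of the 6 expressed Hoxc genes, set out in their order in the cluster without scale. Filled points have an adjusted p under 0.05: from Hoxc9 to Hoxc4 all siHoxc8 and MetR changes lie below 0, and the TGF-β change passes the test for Hoxc10, Hoxc9 and Hoxc8.

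Hoxc8 moved further than the mean of its neighbours in each of these comparisons, though with 2 libraries against 2 none of these differences can pass the exact permutation test used for them. In siHoxc8 Hoxc8 is the target of the siRNA, so a larger fall there was set by the design. In TGF-β against control Hoxc9 alone rose more than Hoxc8 on the log2(FPKM + 1) scale (1.51 ± 0.22 and 1.34 ± 0.19). By the ratio of mean FPKM the order was the other way, at 3.79-fold for Hoxc8 and 3.51-fold for Hoxc9. The mean of the neighbours includes Hoxc4 (0.03) and Hoxc5 (0.00). The log2(FPKM + 1) of Hoxc8 minus the mean of the other 5 expressed members was -1.73 and -2.17 in siHoxc8 libraries, -1.88 and -1.74 in MetR, -0.77 and -0.60 in TGF-β and -1.65 and -1.54 in control libraries. The TGF-β libraries stood apart from the other 6. The difference in means was -1.26 for siHoxc8 and -1.13 for MetR against TGF-β and 0.91 for TGF-β against control, each with an exact two-sided permutation p = 0.333, the smallest that 6 arrangements allow. Set against only its 2 nearest expressed neighbours the differences were -0.75 for siHoxc8 and -0.79 for MetR against TGF-β and 0.48 for TGF-β against control. Set against all 5 with a pseudocount of 0.1 they were -2.77, -2.0 and 1.34 in the same order.

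At the other end of the cluster Hoxc13 had its highest values in siHoxc8 cells and was seen in 1 library of each other group. It had 0.602 and 1.00 FPKM in siHoxc8 libraries, 0.251 and 0 in MetR, 0 and 0.124 in TGF-β and 0 and 0.0571 in control libraries. These are 9 and 18 reads in siHoxc8, 5 and 0 in MetR, 0 and 2 in TGF-β and 0 and 1 in control, and both siHoxc8 libraries were above all others, although the 95% counting interval of the lower one (4.12 to 17.1 reads) overlaps that of MetR replicate 1 (1.62 to 11.7). With no filter on low values, over 19435 genes, Hoxc13 was called in siHoxc8 against TGF-β (0.76 ± 0.15, limma adjusted p = 0.0151), where 16.6% of genes were raised. In the same fit it was called against MetR (0.68 ± 0.15, adjusted p = 0.0164), where 16.0% of genes were raised. It was called against control too (0.80 ± 0.15, adjusted p = 0.0106), where 13.3% were raised. These calls share the 9 and 18 reads of the siHoxc8 libraries. With Hoxc13 counted in, 1 member rose in siHoxc8 against TGF-β while 5 fell.

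**Figure D3:**
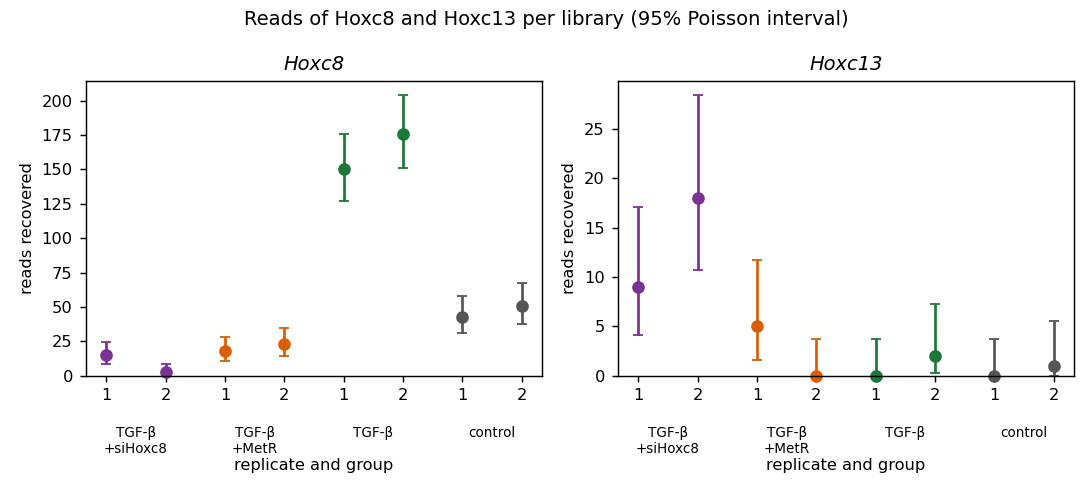
Reads of Hoxc8 and Hoxc13 recovered from the FPKM values (vertical axes, linear) in each of the 8 libraries, with exact 95% Poisson intervals that cover counting error only. The Hoxc8 reads of TGF-β, 150 and 176, stand above all other intervals, and Hoxc13 reaches 9 and 18 reads in siHoxc8 against at most 5 elsewhere.

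Set against control, both combined treatments had lower Hoxc4, Hoxc5, Hoxc6 and Hoxc8 and higher Hoxc10. In siHoxc8 against control 1 member was raised and 4 lowered, where 48.7% of all tested genes were called, 21.7% raised and 27.0% lowered. In MetR against control likewise 1 was raised and 4 lowered, where 57.3% were called, 28.0% raised and 29.3% lowered, and after quantile normalization 2 members were raised and 3 lowered. Hoxc6 differed from control by -1.31 ± 0.11 in siHoxc8 (limma adjusted p = 0.000109) and by -0.94 ± 0.11 in MetR (adjusted p = 0.000295). Hoxc4, at -0.58 ± 0.13 in siHoxc8 (adjusted p = 0.00957) and -1.01 ± 0.13 in MetR (adjusted p = 0.000576), and Hoxc5, at -1.06 ± 0.26 (adjusted p = 0.0118) and -0.94 ± 0.26 (adjusted p = 0.0158), were lower too. The call for Hoxc4 in siHoxc8 ended without control replicate 1 (adjusted p = 0.0722) or siHoxc8 replicate 2 (0.0712). That for Hoxc5 ended without control replicate 1 (0.0683) or siHoxc8 replicate 1 (0.0774) in siHoxc8, and without control replicate 1 (0.0805), control replicate 2 (0.0520) or MetR replicate 2 (0.0600) in MetR.

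Hoxc8 itself was below control in siHoxc8 (-0.83 ± 0.19, limma adjusted p = 0.00960), a call lost without control replicate 2 (adjusted p = 0.0668) or siHoxc8 replicate 2 (0.0670), and -2.65 with limma-voom. In MetR it was below control as well (-0.56 ± 0.19, limma adjusted p = 0.0386), a call that 11 of 18 alternatives ended, among them the omission of either control library (0.0921 and 0.174), either TGF-β library (0.0572 and 0.0579) or either MetR library (0.124 and 0.0515), and the replicate block (0.0532); with limma-voom it was -1.27 (adjusted p = 0.0450). Hoxc9 was near control: it had 3.61 and 2.83 FPKM in siHoxc8 libraries, 4.12 and 3.87 in MetR libraries and 2.07 and 3.45 in control libraries. The differences were 0.18 ± 0.22 for siHoxc8 (limma adjusted p = 0.517) and 0.43 ± 0.22 for MetR (adjusted p = 0.129, and 0.0381 after quantile normalization). Without control replicate 1 that of siHoxc8 was -0.08, and that of MetR was 0.17 without control replicate 1 and 0.70 without control replicate 2.

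Hoxc10 stayed above control in both, by 0.40 ± 0.12 in siHoxc8 (limma adjusted p = 0.0301) and 0.77 ± 0.12 in MetR (adjusted p = 0.00128). The call in siHoxc8 ended without either control library (0.0703 and 0.184) or either siHoxc8 library (0.113 and 0.138), and the call in MetR held under all 18 alternatives.

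Between siHoxc8 and MetR, Hoxc8 did not pass the test, with a difference of -0.27 ± 0.19 (95% interval -0.72 to 0.18, limma adjusted p = 0.270), and the 2 groups overlapped; with limma-voom on the few reads it was -1.38 (adjusted p = 0.117). Hoxc5 (-0.12 ± 0.26, 95% interval -0.72 to 0.48, adjusted p = 0.722) and Hoxc9 (-0.25 ± 0.22, 95% interval -0.77 to 0.27, adjusted p = 0.367) did not pass the limma test either, and these intervals leave room for differences of the size seen elsewhere in the cluster. Hoxc4 was higher in siHoxc8 (0.43 ± 0.13, limma adjusted p = 0.0288), and Hoxc6 (-0.36 ± 0.11, adjusted p = 0.0243) and Hoxc10 (-0.38 ± 0.12, adjusted p = 0.0330) were lower, where 54.2% of all tested genes were called, 24.9% raised and 29.3% lowered. Leaving out siHoxc8 replicate 1 or 2 ended all 3 calls, at adjusted p = 0.158 and 0.0762 for Hoxc4, 0.0895 and 0.134 for Hoxc6 and 0.146 and 0.113 for Hoxc10. So did leaving out control replicate 1 or 2, at 0.0548 to 0.0558, and 1 MetR library, replicate 1 for Hoxc4 (0.0595) and replicate 2 for Hoxc6 (0.0509) and Hoxc10 (0.0931).

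The other Hox clusters were read in the same way. In TGF-β against control, 5 of 9 tested Hoxb genes rose and 2 fell, and 3 of 7 tested Hoxd genes rose, with medians of 0.59 and 0.63 against -0.19 for all tested genes, of which 10.3% rose and 28.6% fell. Hoxb9, of the same paralogue group as Hoxc9, rose the most and averaged 70.9 ± 2.87 FPKM in TGF-β cells and 23.6 ± 0.930 in control cells (SD, n = 2 each; 1.55 ± 0.11, limma adjusted p = 0.000101). Hoxd13 followed at 1.05 ± 0.12 and Hoxb2 at 1.02 ± 0.15, while the 2 Hoxb falls, of Hoxb3 and Hoxb5, did not pass after the median ratio rescaling. Of 9 Hoxa genes in the table none passed the filter.

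In MetR against TGF-β 3 tested Hoxb genes rose and 1 fell, and 2 Hoxd genes rose and 2 fell, with medians of 0.25 and -0.04. These are 33.3% and 11.1% of Hoxb and 28.6% each of Hoxd genes, near the 34.8% raised and 19.0% lowered of all tested genes. Hoxb13 rose by 1.06 ± 0.19 (limma adjusted p = 0.00265) and Hoxb6 by 0.96 ± 0.16, while Hoxb9 (-0.63 ± 0.11) and Hoxd4 (-0.59 ± 0.18) fell. In siHoxc8 against TGF-β 3 Hoxb and 3 Hoxd genes fell and 1 Hoxb gene rose, with medians of -0.22 and -0.46, and after the median ratio rescaling 4 Hoxb and 6 Hoxd genes fell. The falls as deposited are 33.3% of Hoxb and 42.9% of Hoxd genes, against 15.7% of all tested genes, and after rescaling 44.4% and 85.7%, against 2708 of all 12315 tested genes. Hoxb6 (-1.02 ± 0.16, limma adjusted p = 0.00221) and Hoxd11 (-0.95 ± 0.17) fell the most. Hoxb8, the paralogue of Hoxc8 in the Hoxb cluster, was at 10.8 ± 1.49 FPKM in siHoxc8 cells and 7.12 ± 0.0561 in TGF-β cells (0.53 ± 0.15, limma adjusted p = 0.0218), which did not pass after the median ratio rescaling (adjusted p = 0.0665). Hoxd8, the paralogue of Hoxc8 in the Hoxd cluster, went the other way and fell in siHoxc8 against TGF-β (-0.70 ± 0.24, limma adjusted p = 0.0463).

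The genes that flank the cluster on chromosome 7 were listed from both of its sides, but the tested ones lie almost all on the Hoxc4 side. Only Atp5mc2, 256 kb away, lies beyond Hoxc13, and the others lie 115 to 306 kb beyond Hoxc4. Of 12 symbols listed, 11 are in the table and 7 were tested. In siHoxc8 against TGF-β 5 rose (71.4%, against 28.1% of all tested genes) and the other 2 did not pass, with a median of 0.54. Cbx5, the heterochromatin protein HP1 alpha, averaged 53.6 ± 5.31 FPKM in siHoxc8 cells and 16.4 ± 0.903 in TGF-β cells (SD, n = 2 each; 1.65 ± 0.11, limma adjusted p = 6.89e-05), and Hnrnpa1, an RNA-binding splicing factor, rose by 1.26 ± 0.10. In MetR against TGF-β Cbx5 (-0.86 ± 0.11) and 2 others fell, while Smug1, a uracil-DNA glycosylase, rose by 0.69 ± 0.12 and Hnrnpa1 by 0.61 ± 0.10, with a median of -0.30. Of all tested genes 34.8% rose and 19.0% fell there, and after the median ratio rescaling 5 of the 7 flanking genes fell, with a median of -0.51, where 26.5% of all genes fell. In TGF-β against control, 1 rose, Itga5, the fibronectin receptor subunit (0.83 ± 0.09), and 3 fell, 2 of them also after the median ratio rescaling, with a median of -0.11 that turned to 0.11 after the median ratio rescaling; of all tested genes 10.3% rose and 28.6% fell.

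Cofactors and regulators of Hox genes were listed too. The TALE homeodomain proteins bind DNA together with Hox proteins. The 8 tested genes of this list also include Pbxip1, which interacts with Pbx proteins and is not itself a TALE protein. In TGF-β against control 6 of the 8 fell (75.0%, against 28.6% of all tested genes), Pbxip1 among them (-0.68 ± 0.09). Pbx4, another of the 6, passed the filter only through its control libraries (1.57 and 1.02 FPKM), so its fall there was favoured in advance. After the median ratio rescaling 3 of the 8 fell (37.5%, against 17.6%). Meis2 was among those that fell (-0.87 ± 0.14), and it rose by 1.25 ± 0.14 in MetR against TGF-β (limma adjusted p = 0.000403). Against TGF-β, 3 of the 8 listed genes rose and 1, Pbxip1, fell in siHoxc8 (37.5% and 12.5%, against 28.1% and 15.7% of all tested genes). In MetR 2 of 8 rose and 1 fell (against 34.8% and 19.0%). Both are near the shares of all genes.

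Of 22 upstream and chromatin regulators of Hox genes listed, 19 were tested. In siHoxc8 against TGF-β 9 rose and the other 10 did not pass, and in MetR against TGF-β likewise 9 rose, 47.4% in each, where 28.1% and 34.8% of all tested genes rose. In TGF-β against control 7 fell, 36.8%, where 28.6% of all genes fell, and the medians in these comparisons were 0.35, 0.47 and -0.35. Cdx1, 1 of these 7, passed the filter only through its control libraries (2.25 and 1.52 FPKM), so its fall there was favoured in advance. After the median ratio rescaling 5 regulators were raised in siHoxc8 against TGF-β (26.3%, near the 21.1% of all genes). In MetR against TGF-β 8 were raised and 2 lowered (42.1% and 10.5%, against 25.8% and 26.5% of all genes). In TGF-β against control 2 were raised and 4 lowered (10.5% and 21.1%, against 18.3% and 17.6%). Ezh2, the Polycomb enzyme that methylates histone H3 at lysine 27, averaged 31.4 ± 0.370 FPKM in siHoxc8 cells and 10.5 ± 0.0259 in TGF-β cells (SD, n = 2 each; 1.49 ± 0.14, limma adjusted p = 0.000223). Gmnn, the replication licensing inhibitor geminin, which also binds Hox and Polycomb proteins, rose by 1.65 ± 0.19 in the same comparison. In MetR the leading rises were those of Cbx2 (1.32 ± 0.15) and Bmi1 (1.29 ± 0.12), both of the Polycomb complex 1, and Kmt2d (1.12 ± 0.19), a histone H3 lysine 4 methyltransferase. Outside this list, Cdk9, the transcription elongation kinase, averaged 180 ± 37.4 FPKM in MetR cells and 64.1 ± 5.87 in TGF-β cells (1.46 ± 0.14, limma adjusted p = 0.000252). Smad3, the signal carrier of TGF-β, averaged 12.9 ± 1.38 FPKM in siHoxc8, 34.2 ± 0.897 in MetR, 19.2 ± 1.52 in TGF-β and 44.5 ± 0.964 in control cells. It changed by -0.55 ± 0.11 in siHoxc8 and 0.80 ± 0.11 in MetR against TGF-β, and by -1.17 ± 0.11 in TGF-β against control.

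**Figure D4:**
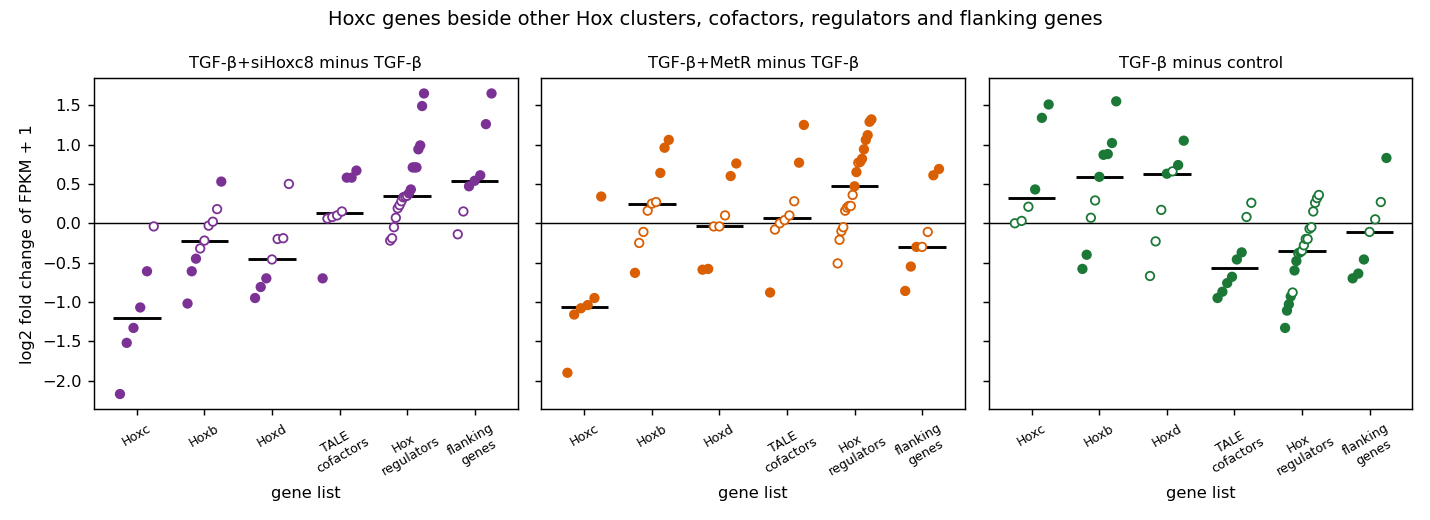
Log2 fold change of FPKM + 1 (vertical axes) of every tested gene of the Hoxc, Hoxb and Hoxd clusters, the TALE cofactors with Pbxip1, the Hox regulators and the genes flanking the Hoxc cluster. Each gene is 1 point, filled where the adjusted p is under 0.05, and a bar marks the median. The Hoxc medians, -1.20 in siHoxc8 and -1.06 in MetR against TGF-β, are the lowest of the 6 lists in both panels.

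Over the 8 libraries the gene most like Hoxc8 by Pearson correlation of log2(FPKM + 1) was Ankrd37, an ankyrin repeat gene (r = 0.982), among 6267 tested genes whose highest and lowest library differ by at least 1 on that scale. It had 1.29 and 0.757 FPKM in siHoxc8 libraries, 1.08 and 1.57 in MetR, 3.46 and 4.34 in TGF-β and 2.11 and 2.20 in control. Next came Map6, a microtubule stabiliser (r = 0.980), Tpm1, the actin-binding tropomyosin (r = 0.978), Dstn, the actin-severing protein destrin (r = 0.978), and Vcl, the adhesion protein vinculin (r = 0.970). Tpm1 had 204 and 206 FPKM in siHoxc8 libraries, 220 and 202 in MetR, 501 and 555 in TGF-β and 298 and 308 in control. These 5 genes share the order of Hoxc8, with TGF-β highest, control next and both combined treatments lowest. The 8 points come from 4 groups and share their libraries, so r mainly reflects the group means and has no p here.

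By Pearson correlation the other Hoxc genes followed Hoxc8 less closely than these 5, with r = 0.877 for Hoxc6, 71st among the 6267, 0.827 for Hoxc9, 0.734 for Hoxc4, 0.700 for Hoxc5 and -0.159 for Hoxc10. By ranks the order differs: Spearman's rho was 0.976 for Hoxc6, above that of Map6 (0.929), Tpm1 (0.786), Dstn (0.952) and Vcl (0.881), and it was 0.786 for Hoxc4, 0.619 for Hoxc5, 0.476 for Hoxc9 and -0.238 for Hoxc10. Within the cluster, Hoxc5 and Hoxc6 had r = 0.89 and Hoxc4 and Hoxc6 0.83, in genes whose intervals overlap. Hoxc10 had r = -0.72 with Hoxc4. With Spearman's rank correlation 6 genes led, Ankrd37 (1.000) and, tied at 0.976, Mvb12a, Txnrd3, S100a6, Avpi1 and Hoxc6, of which Ankrd37 is shared with the 5 named by Pearson correlation.

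**Figure D5:**
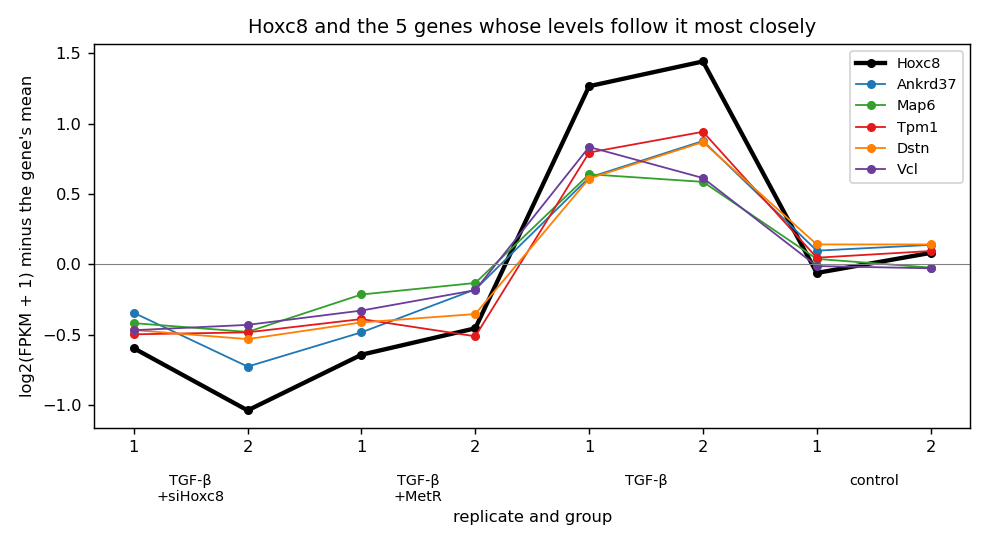
Log2(FPKM + 1) minus the gene's mean over the 8 libraries (vertical axis) for Hoxc8, in black, and the 5 genes most like it, by library. All 6 genes are highest in both TGF-β libraries, and Hoxc8 spans the widest range.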

How the data were processed

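RNA-seq of 8 NRK-49F libraries was analysed, from a table of FPKM values by gene symbol that the authors deposited. Per the submitters' processing notes, Bowtie2 2.3.5.1, featureCounts, deepTools and Trim Galore were used, in roles not stated, with the build rn6; RNA aligner, annotation and strand setting are not given in the sources. Each library's values were whole multiples of 1 step per gene, and whole reads were recovered for 100.0% of 19435 genes above 0 (tolerance 0.02 reads). The 12315 genes that reached 1 FPKM in 2 or more libraries were fitted as log2(FPKM + 1) by limma 3.58.1 (R 4.3.3) over all 8 libraries, without covariates and with a trend on the variance (4 residual and 3.47 prior degrees of freedom). P-values are two-sided, with Benjamini-Hochberg adjustment over all tested genes of a comparison and a threshold of 0.05. All 9 Hoxc rows are named whatever their result. From each gene list up to 4 genes with the largest change among those called could be named, and the genes most like Hoxc8 are the 5 highest by Pearson's r; Hoxb3 and Hoxb5 were named for TGF-β against control after their values were seen. The members and lists were chosen with earlier results of these data known. Groups came from sample titles. Alternatives were 2 pseudocounts, 2 filters, 2 rescalings, limma-voom on recovered reads, only the 4 libraries compared, a replicate block, library weights and the omission of each library. The fit was tested on simulated data. The values of 1 gene of the lists are not reported here.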

Additional observations from a re-analysis of the deposited data

How the results depend on the processing

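Across the 18 alternatives, the Hoxc8 calls for siHoxc8 against TGF-β (-4.56 to -1.95), MetR against TGF-β (-3.19 to -1.81) and TGF-β against control (1.26 to 1.91) kept their direction and call. The count of raised members in MetR against TGF-β, 1 as reported, was 0 with no filter on low values, with median ratio rescaling, quantile normalization, limma-voom on recovered reads, library weights, only the 4 libraries compared and the replicate block, and 0 to 1 with single libraries left out; that of lowered members was 3 with library weights and 4 to 5 with single libraries left out. In siHoxc8 against TGF-β 1 member, Hoxc13, was raised with no filter on low values, and with single libraries left out 4 to 5 were lowered. In MetR against control 2 were raised with quantile normalization and 2 lowered with library weights, and 2 to 4 were lowered with single libraries left out. In siHoxc8 against control 2 were raised with no filter on low values, and 0 to 1 were raised and 2 to 4 lowered with single libraries left out. In siHoxc8 against MetR none was raised with quantile normalization, library weights or only the 4 libraries compared (0 in each), 1 was lowered with quantile normalization and 1 with limma-voom, 0 with library weights and 0 with only the 4 libraries, and with single libraries left out 0 to 1 were raised and 0 to 2 lowered. In TGF-β against control 2 to 3 were raised with single libraries left out. The cause of these differences was not tested.

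Signs turned only for changes that did not pass the test. With single libraries left out, Hoxc4 in TGF-β against control ranged from -0.10 (without TGF-β replicate 2; -0.01 without control replicate 2) to 0.16, and Hoxc5 there from -0.37 (without TGF-β replicate 1; -0.06 without control replicate 2) to 0.38; Hoxc5 was also -0.01 with a pseudocount of 0.1, -0.00 with 0.5 and -0.02 with limma-voom. Likewise Hoxc10 in siHoxc8 against TGF-β ranged from -0.08 to 0.01 (without TGF-β replicate 2), Hoxc9 in siHoxc8 against control from -0.08 (without control replicate 1) to 0.45, and Hoxc5 in siHoxc8 against MetR from -0.32 to 0.08 (without siHoxc8 replicate 1).

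Libraries with the same replicate number deviated from their group means with correlations of -0.02 for siHoxc8 and TGF-β, 0.20 for MetR and TGF-β and 0.01 for TGF-β and control. These correlations are weak, and whether same-numbered libraries share a culture or batch cannot be told from them. With the replicate number as a block, Hoxc8 kept its call in the first 3 comparisons, and the calls lost were those of Hoxc10 in MetR against TGF-β (adjusted p = 0.0611) and of Hoxc8 in MetR against control (adjusted p = 0.0532). Depth limits Hoxc8 and Hoxc13 most, with 3 to 176 and 0 to 18 reads per library.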

Other observations

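The table also has rows for 2 microRNA genes that lie in the cluster, Mir615 within Hoxc5 and Mir196a between Hoxc10 and Hoxc9, which were chosen after their values were seen. In libraries of polyadenylated RNA such rows do not measure the mature microRNA. Mir615 had 0 reads in both siHoxc8 libraries and both MetR libraries, 2 and 1 reads in the TGF-β libraries and 4 and 5 reads in the control libraries. Mir196a had 0 and 1 reads in siHoxc8, 0 in both MetR and both TGF-β libraries and 0 and 2 in control. At these counts no difference can be read from either row.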
